A study of Homo sapiens with 6 samples.

Results

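Complement is the set of proteins that marks cells and particles for clearance. 9 of its genes were examined in MCF10A cells in which DAB2IP was knocked down: the components C3, CFB, CFD, C1R and C1S, the soluble regulator CFI and the membrane regulators CD46, CD55 and CD59. They were taken by gene name from the table of counts per gene, in which each name matched a single row, so that 9 of 58735 genes are described, all of which were abundant enough to be tested. MCF10A is a nonmalignant human mammary epithelial line, whose culture medium here held horse serum, insulin, epidermal growth factor, cholera toxin and hydrocortisone. Of the 6 RNA-Seq libraries, all made 48 hours after transfection, 3 came from cells given a nontargeting control siRNA pool (siControl, with the genotype given as WT) and 3 from cells given siRNA against DAB2IP (siDAB2IP). DAB2IP encodes a Ras GTPase-activating and scaffold protein that restrains Ras and NF-κB signaling, and the comparison asks how the transcriptome differs when its expression is lowered. The design holds a single cell line, siRNA against a single gene and a single time. The labels do not state that the replicates were separate cultures, so p-values measure the spread between these libraries, which may be technical.

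Complement is started by the classical, the lectin or the alternative pathway, and all of them cleave C3, whose larger fragment binds covalently to surfaces. In the classical pathway, the serine protease C1r activates the serine protease C1s within the C1 complex, and in the alternative pathway factor D cleaves factor B once it is bound to C3b. Factor I cleaves C3b and C4b with the help of cofactors such as CD46, CD55 speeds the decay of the convertases, and CD59 blocks assembly of the membrane attack complex. The liver makes most of the circulating complement, but epithelial cells also transcribe C3 and factor B, which are known as genes induced by inflammatory cytokines.

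Of the 9 genes, 5 were lower in siDAB2IP than in siControl cells (C3, CFB, C1R, C1S and CD59), and the difference of the other 4 (CFD, CFI, CD46 and CD55) did not pass the test. The test was edgeR's quasi-likelihood test with Benjamini-Hochberg adjustment over all 15430 genes tested, with an adjusted p under 0.05 as threshold. By the same test, 7.65% of all genes tested were lower and 6.55% were higher. None of the 9 genes was called higher by this test, in which the unadjusted edgeR p was 0.0362 for CFI and 0.0134 for CD46. CD46 was called higher by DESeq2, as were 1098 genes in all. These came from 29567 genes with any counts, whether or not DESeq2 gave them an adjusted p. Other settings of edgeR called CD46 or CD55 higher, as given below. The median log2 fold change of the 9 genes was −0.39, which is the value of CD59, beside 0.01 for all genes tested. The 9 genes and the wider list below were chosen with earlier results of these data known. Their shares and medians beside those of all genes are therefore description only. The falls differed in size, with CFB and C1R left at 27.8% and 31.4% of their control level, C1S and C3 at 56.8% and 63.7%, and CD59 at 76.4%.

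In the 6 libraries, 16353783 to 21916062 reads were counted on genes, so that 0 counts in a library still allow a level of up to 3 counts, or 0.139 to 0.187 CPM by counting error alone. DAB2IP itself (chr9:121567057-121785530) stood at 103, 94.2 and 77.4 CPM in the siControl libraries and at 27.5, 25.6 and 22.4 CPM in those with siDAB2IP. Its log2 fold change was −1.86 (SE 0.13, edgeR adjusted p = 9.71e-05). CPM are counts relative to the TMM-scaled library total. No pair of libraries held identical values. Of 8 epithelial markers all were detected, and their summed level was 7133 to 8750 CPM in siControl and 4812 to 5740 CPM in siDAB2IP libraries, with KRT5, KRT14 and KRT17 lower, LAMB3 higher and EPCAM, CDH1, KRT18 and TP63 not called. Of 8 hepatocyte markers only SERPINA1 was abundant enough to be tested, and it was lower (log2 fold change −1.23, edgeR adjusted p = 0.00499). SERPINA1 made up nearly all of the sum of the list. This sum was 60.5 to 84.4 CPM in siControl and 23.3 to 41.9 CPM in siDAB2IP libraries, while ALB, TTR and FGA had 0 counts throughout. Of 8 leukocyte markers only CD14 and CSF1R were tested, with CSF1R higher and a sum of 43.1 to 78.0 CPM against 66.3 to 89.4 CPM, while CD3E and TYROBP had 0 counts throughout. Most of this sum was CD14, which was not called (35.9 to 69.7 CPM in siControl and 49.5 to 77.2 CPM in siDAB2IP libraries). Of 8 fibroblast and endothelial markers 7 were tested, with COL1A1 higher, KDR lower and a sum of 187 to 326 CPM against 160 to 221 CPM. DCN made up most of that sum and was not called (148 to 275 CPM in siControl and 122 to 172 CPM in siDAB2IP libraries). The calls of KRT17, KDR, CSF1R and COL1A1 were lost when single libraries were omitted, with adjusted p between 0.0547 (KRT17) and 0.171 (KDR, without siControl replicate 3) in those edgeR fits. The part of these marker lists in the complement results was not tested. In libraries of bulk RNA, fewer cells of a type and less RNA per cell cannot be told apart.

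The stretches before the transcription start are shown for 3 genes that stand for the different outcomes, CFB and C1R with the lowest levels relative to control among the 9 and CD46 with a higher level in every siDAB2IP library. They are RefSeq sequences of GRCh38.p14, written 5′ to 3′ on the gene's strand. The 250 bases before each start were searched on both strands for the NF-κB consensus, the C/EBP core TTNNGNAA, the STAT palindrome TTCNNNGAA and the AP-1 site TGANTCA, and matches are in capitals. For CFB only the 29 bases that span its matches are shown, since the window lies in an untranslated exon of longer CFB transcripts. The C1R window also lies wholly in annotated exon sequence of other C1R transcripts, none of it untranslated region, and the CD46 window holds no exonic base.
CFB, chr6:31945983-31946011, plus strand, 112 to 84 bases before the start: GGGGCCCTCCcgcttggatgTTCCGGGAA
C1R, chr12:7091894-7092143, minus strand, 250 to 1 bases before the start: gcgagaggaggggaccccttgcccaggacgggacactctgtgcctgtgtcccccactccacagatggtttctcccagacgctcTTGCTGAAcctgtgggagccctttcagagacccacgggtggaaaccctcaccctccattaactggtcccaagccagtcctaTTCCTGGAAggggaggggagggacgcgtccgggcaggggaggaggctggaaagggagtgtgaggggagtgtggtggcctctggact
CD46, chr1:207751788-207752037, plus strand, 250 to 1 bases before the start: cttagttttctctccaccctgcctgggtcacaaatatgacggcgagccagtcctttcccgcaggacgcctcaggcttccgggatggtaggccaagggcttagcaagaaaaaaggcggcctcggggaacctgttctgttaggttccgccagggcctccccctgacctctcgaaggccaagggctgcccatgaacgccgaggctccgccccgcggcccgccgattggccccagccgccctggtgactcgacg
In CFB the capitals are a match to the NF-κB consensus (GGGGCCCTCC) and a STAT palindrome (TTCCGGGAA), which do not overlap each other. In C1R they are a C/EBP core (TTGCTGAA) and a STAT palindrome (TTCCTGGAA), and the CD46 window held none of the 4 motifs. Among 35114 windows of the same length in the table, 9.96% held the NF-κB consensus, 33.2% the C/EBP core, 6.57% the STAT palindrome and 6.57% the AP-1 site. The table held 12 windows for 7 of the 9 genes, and no window was found for C3 and C1S. The second C1R window and the CFI window each held 2 C/EBP cores, the windows of CFD and CD55 held none of the motifs, and among the 4 windows of CD59 there were 2 AP-1 sites, 2 C/EBP cores and 1 STAT palindrome shared by a pair of overlapping windows. A match is a run of letters and not a measured binding site.

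Levels can be compared between genes only per length, and the deposited FPKM values were used for this. C3 was by far the most abundant of the 9 genes, at 829, 880 and 901 FPKM (lowest, median and highest siControl library). It was followed by CD46 at 113, 128 and 140 FPKM. The membrane regulators CD55 (45.6, 45.8 and 47.8 FPKM) and CD59 (42.2, 45.9 and 46.3 FPKM) came next, and their ranges overlapped. The classical pathway proteases followed, C1R at 28.9, 33.5 and 34.1 FPKM and C1S at 14.6, 14.9 and 15.6 FPKM. The range of C1S overlapped that of CFB, at 8.87, 13.0 and 14.6 FPKM. CFD at 3.83, 4.14 and 4.68 FPKM and CFI at 0.393, 0.771 and 0.890 FPKM were the lowest of the 9. In siDAB2IP libraries the order was kept down to C1S, and CFD (4.03, 5.20 and 6.82 FPKM) then stood before CFB (2.10, 3.33 and 4.69 FPKM). The ranges of CD55 and CD59, and those of each neighboring pair from C1R to CFB, overlapped there.

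**Figure D1:**
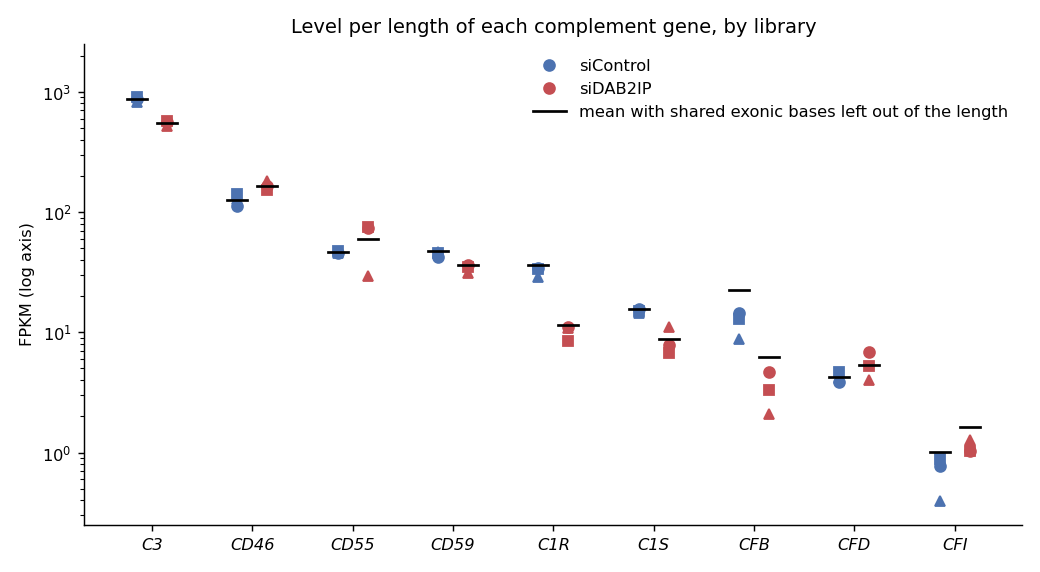
FPKM (log axis) of the 9 complement genes in each siControl (blue) and siDAB2IP (red) library, with circles, squares and triangles for replicates 1, 2 and 3, and black lines for the mean after exonic bases shared with another gene were left out of the length. The genes span from 0.393 FPKM (CFI) to 901 FPKM (C3), and the black line departs most from the points for CFB and CFI.

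The order of CFB depends on how its length is counted. Of its 4997 exonic bases, 45.5% are shared with other annotated genes, mainly the read-through gene AL645922.1, for which 0 reads were counted in every library. C2, the neighbor that shares the remaining 23 bases, had 1 to 4 counts per library. For CFI 32.0% of the exonic bases are shared with AC126283.2, which also had 0 counts, for C1R 11.4% with C1RL, for CD59 6.07% with AL049629.2 (2 to 5 counts) and for C1S 3.54% with EMG1. C3, CFD, CD46 and CD55 share none. How reads in shared exons were assigned, and whether strand was used in counting, was not given in the sources used here. With shared bases left out of the length and all counts kept, CFB stood at 22.3 ± 5.40 FPKM (SD, n = 3) in siControl libraries, above C1S at 15.6 ± 0.568 FPKM, and CD59 (47.7 FPKM) stood before CD55 (46.4 FPKM). In siDAB2IP libraries CFB then stood at 6.18 FPKM, before CFD at 5.35 FPKM, so that the order of these genes turned back.

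C3 (chr19:6677704-6730562), the component on which all pathways converge, ranked 6th among all genes tested by its mean CPM in siControl libraries. It stood at 7409, 7551 and 6976 CPM in the siControl libraries and at 4745, 4836 and 4388 CPM in the siDAB2IP libraries. Every siDAB2IP library lay below every siControl library, and within each group the libraries lay close together. The log2 fold change was −0.65 (SE 0.13, 95% interval −0.95 to −0.35, edgeR adjusted p = 0.0126). C3 took 0.693% to 0.742% of all counts of a siControl library and 0.454% to 0.483% of a siDAB2IP library. Without siControl replicate 2, the adjusted p of C3 was 0.0607. The transcript AC008760.2 lies within an intron of C3 on the same strand (chr19:6716386-6717742) and shares no exon with it. It had 59, 93 and 63 counts in siControl and 17, 29 and 18 counts in siDAB2IP libraries, with a log2 fold change of −1.69 (SE 0.28, edgeR adjusted p = 0.00494). The ratio of its FPKM to that of C3 was 0.00304, 0.00351 and 0.00325 in siControl and 0.00124, 0.00204 and 0.00146 in siDAB2IP libraries, so that it was lower relative to C3 in every siDAB2IP library. Whether the reads counted for AC008760.2 came from unspliced C3 RNA was not tested. GPR108, which overlaps the start of C3, had a log2 fold change of 0.26 (edgeR adjusted p = 0.116).

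CFB (chr6:31945650-31952084) encodes factor B, the protease zymogen of the alternative pathway convertases. It stood at 73.6, 65.3 and 44.8 CPM in the siControl libraries and at 23.6, 16.8 and 10.6 CPM in the siDAB2IP libraries. Replicate 3 was the lowest library in both groups, and the groups did not overlap. Its log2 fold change was −1.85 (SE 0.27, 95% interval −2.44 to −1.25, edgeR adjusted p = 0.00296), the greatest fall among the 9 genes and the 72nd among all genes tested. CFB was also lower relative to C3, with FPKM ratios of 0.0166, 0.0144 and 0.0107 in siControl and 0.00830, 0.00580 and 0.00403 in siDAB2IP libraries. This ratio and 6 others were chosen after the values were seen, and each gave p = 0.1 in a two-sided exact permutation test, the smallest that 3 libraries against 3 allow (also 0.1 after adjustment over the 7 ratios). The groups did not overlap in any of the 7 ratios, which fixes this p, so that it adds no support.

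CFD (chr19:859643-863630) encodes factor D, the protease that cleaves factor B. It stood at 4.74, 5.76 and 5.11 CPM in the siControl libraries and at 8.41, 6.42 and 4.99 CPM in the siDAB2IP libraries, which rest on 76 to 149 counts. The groups overlapped, since siDAB2IP replicate 3 lay between siControl replicates 1 and 3. Its log2 fold change was 0.34 (SE 0.22, 95% interval −0.15 to 0.83, edgeR adjusted p = 0.337).

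C1R (chr12:7080199-7092607) and C1S (chr12:6988259-7071032), the proteases of the C1 complex, lie tail to tail with 9166 bases between them, and both fell. C1R stood at 203, 198 and 172 CPM in the siControl libraries and at 65.6, 50.3 and 64.3 CPM in the siDAB2IP libraries. C1S stood at 102, 96.6 and 95.0 CPM in the siControl libraries and at 51.2, 43.9 and 71.7 CPM in the siDAB2IP libraries. Neither gene's groups overlapped, and siDAB2IP replicate 3 was the highest of its group for C1S but not for C1R. The log2 fold change was −1.67 for C1R (SE 0.13, 95% interval −1.95 to −1.39, edgeR adjusted p = 0.000136). For C1S it was −0.82 (SE 0.16, 95% interval −1.17 to −0.46, edgeR adjusted p = 0.0102). The FPKM ratio of C1R to C1S was 2.19, 2.25 and 1.99 in siControl and 1.41, 1.26 and 0.984 in siDAB2IP libraries, so that C1R was lower relative to its partner in each siDAB2IP library (p = 0.1 in the exact permutation test, the smallest possible). C1RL, the C1r-like protease gene that overlaps C1R, had a log2 fold change of −0.43 (SE 0.17, edgeR adjusted p = 0.120), and blocking by replicate number gave an adjusted p of 0.0340. LPCAT3, which overlaps C1S on the opposite strand without sharing an exon, rose by a log2 fold change of 0.50 (edgeR adjusted p = 0.0150, and 0.0514, 0.0716 and 0.0712 without siControl replicate 1, 2 or 3). EMG1 had a log2 fold change of −0.09 (edgeR adjusted p = 0.670).

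CFI (chr4:109740694-109802179) encodes factor I, the protease that inactivates C3b. It stood at 3.80, 4.36 and 1.94 CPM in the siControl libraries and at 5.08, 5.10 and 6.20 CPM in the siDAB2IP libraries, on 33 to 107 counts. Every siDAB2IP library lay above every siControl library, and siControl replicate 3 was well below the others. The log2 fold change was 0.69 (SE 0.28, 95% interval 0.05 to 1.32), and it did not pass (edgeR adjusted p = 0.136). Without siControl replicate 3 the log2 fold change was 0.40, with an adjusted p of 0.330.

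**Figure D2:**
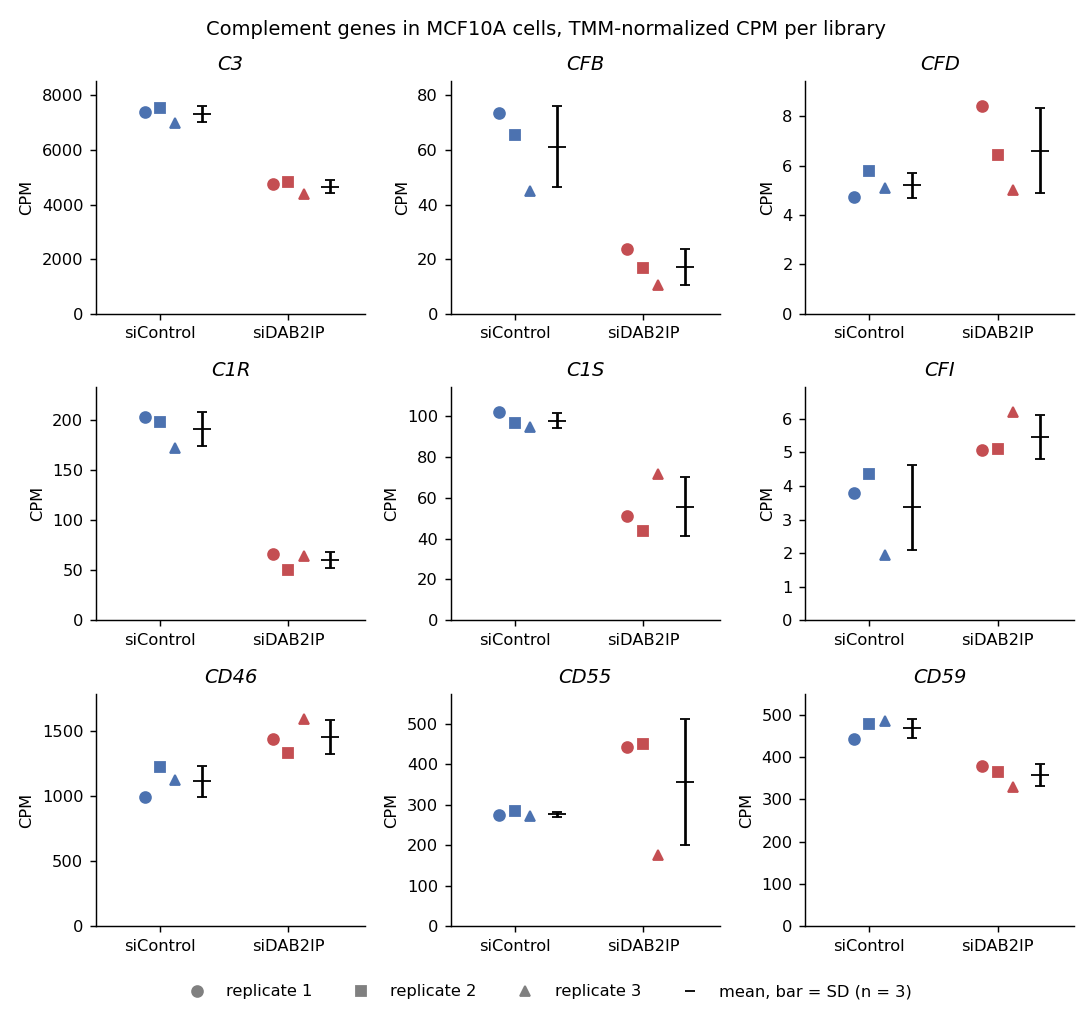
TMM-normalized CPM of the 9 complement genes in each library, with circles, squares and triangles for replicates 1, 2 and 3 and black marks for the mean and SD (n = 3); each panel has its own axis from 0. The siControl (blue) and siDAB2IP (red) points do not overlap for C3, CFB, C1R, C1S and CD59 (lower) and for CFI and CD46 (higher), and siDAB2IP replicate 3 of CD55 stands at 176 CPM below all other points of its panel.

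The 3 membrane regulators, which protect a cell from complement on its own surface, did not move together. CD46 (chr1:207752057-207795513), the cofactor for factor I, stood at 993, 1226 and 1123 CPM in the siControl libraries and at 1439, 1335 and 1597 CPM in the siDAB2IP libraries. All siDAB2IP libraries lay above all siControl libraries. The log2 fold change was 0.39 (SE 0.13, 95% interval 0.10 to 0.67), and the edgeR adjusted p was 0.0736. It was under the threshold with DESeq2 (adjusted p = 0.0199), in edgeR without a filter on low counts (adjusted p = 0.0458) and in edgeR with the replicate number as a block (adjusted p = 0.0464).

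CD55 (chr1:207321376-207386804), the decay-accelerating factor, lies 365252 bases from CD46 on the same strand. It stood at 274, 284 and 272 CPM in the siControl libraries and at 442, 451 and 176 CPM in the siDAB2IP libraries. A pair of siDAB2IP libraries was well above the narrow siControl range and siDAB2IP replicate 3 was below it. With all libraries, the log2 fold change was 0.37 (SE 0.28, 95% interval −0.26 to 0.99, edgeR adjusted p = 0.422). Without siDAB2IP replicate 3, it was 0.69 (edgeR adjusted p = 0.000565), and in edgeR without a filter on low counts the adjusted p with all libraries was 0.0463.

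CD59 (chr11:33703010-33736491), the inhibitor of the membrane attack complex, stood at 442, 478 and 485 CPM in the siControl libraries and at 378, 366 and 329 CPM in the siDAB2IP libraries. All siDAB2IP libraries lay below all siControl libraries. The log2 fold change was −0.39 (SE 0.11, 95% interval −0.62 to −0.15, edgeR adjusted p = 0.0364). When each library was omitted in turn, the adjusted p stayed under 0.05 only without siDAB2IP replicate 3 (0.0356). It was 0.0510, 0.128 and 0.0942 without siControl replicate 1, 2 or 3 and 0.0695 and 0.0753 without siDAB2IP replicate 1 or 2.

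Counted by overlap, 5 of the 9 genes were lower in every siDAB2IP library than in every siControl library, where 18.3% of all genes tested were, and 2 were higher, where 17.6% were. For each of these 7 genes the two-sided exact permutation test on CPM gave p = 0.1, the smallest possible. This value follows from the lack of overlap by which the genes were counted, and adds no support. The FPKM of CD46, CD55 and CD59 together amounted to 0.228, 0.259 and 0.265 of that of C3 in the siControl libraries and to 0.486, 0.456 and 0.465 in the siDAB2IP libraries, with p = 0.1 in the exact permutation test. The siDAB2IP libraries were all higher in this ratio and close to each other, although CD55 differed between them. C3 accounted for 75.0% to 76.5% of the summed FPKM of the 9 genes in siControl and for 64.9% to 66.7% in siDAB2IP libraries.

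For description, the replicate numbers were taken to pair the libraries, which the edgeR test reported above did not do. The difference within each number was nearly the same for C3, with log2 values of −0.64, −0.64 and −0.67 in replicates 1, 2 and 3. For CFB it was −1.63, −1.95 and −2.07, and for C1R −1.63, −1.98 and −1.42. For C1S it was −0.99, −1.14 and −0.40, with replicate 3 the smallest. The differences of CD59 (−0.23, −0.39 and −0.56) were also negative in every replicate number. Those of CD46 (0.53, 0.12 and 0.51) and CFI (0.41, 0.22 and 1.62) were positive in every number, whereas CFD (0.81, 0.16 and −0.03) and CD55 (0.69, 0.67 and −0.63) turned negative in replicate 3. With the replicate number as a block, CD46 was called higher in addition to the 5 genes called lower. In that fit 1479 of all 15430 genes tested were called higher and 1754 lower.

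**Figure D3:**
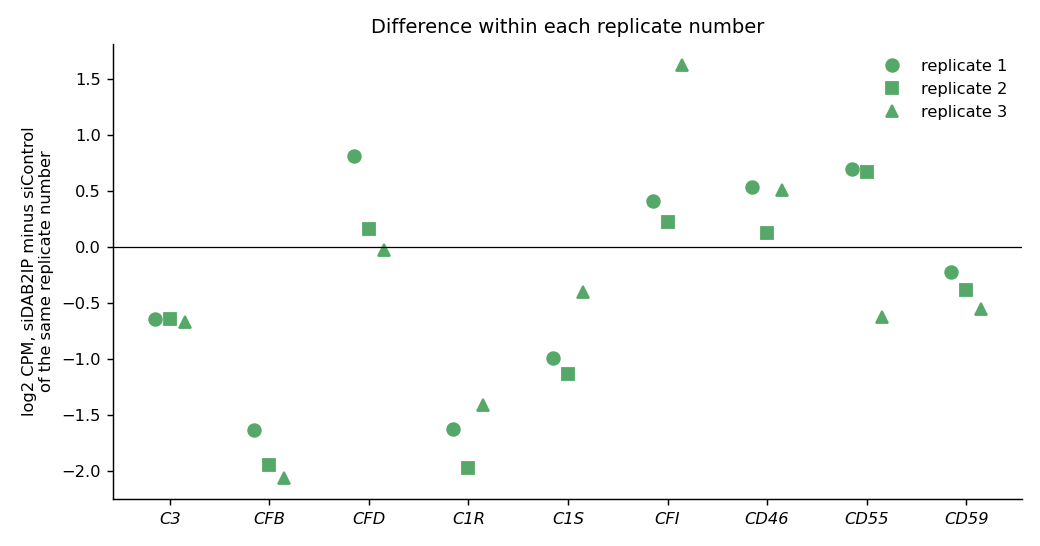
Difference in log2 CPM between the siDAB2IP and the siControl library of the same replicate number, for the 9 complement genes, with circles, squares and triangles for replicates 1, 2 and 3. The points of C3 coincide near −0.65, those of CFB, C1R, C1S and CD59 are all below 0, those of CFI and CD46 are all above 0, and CD55 and CFD have replicate 3 below 0.

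A wider list of 59 complement genes, which includes the 9, was described in the same way. 28 of them were tested, and of the 31 that were not, 13 had 0 counts in every library. The chains of C1q, C1QA, C1QB and C1QC, which carry C1R and C1S in the C1 complex and are named here after their values were seen, were among the genes with 0 counts. Of the 28 genes, 6 fell (21.4%) and 1 rose (3.57%), beside 7.65% and 6.55% of all genes tested, and their median log2 fold change was −0.37. Without the 9 genes, 19 were tested, of which 1 fell and 1 rose, with a median of −0.34. Many of these 19 stood at low levels, down to a mean of 0.602 CPM over the 6 libraries. The standard errors of their log2 fold changes reached 0.64, so that this median is uncertain. By role, 2 of 5 tested genes of the classical pathway fell (C1R and C1S), as did 2 of 4 of the alternative pathway with C3 (CFB and C3), 1 of 3 soluble regulators (CLU) and 1 of 5 membrane regulators (CD59). None of the 2 tested genes of the terminal pathway and not the only one of the lectin pathway was called, and 1 of 8 receptors rose (C5AR2).

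CLU, which encodes clusterin, a soluble inhibitor of the membrane attack complex and chaperone, stood at 124, 119 and 74.2 CPM in siControl and at 74.9, 63.2 and 46.5 CPM in siDAB2IP libraries. The groups overlapped slightly, with replicate 3 the lowest in both, and the log2 fold change was −0.78 (SE 0.21, edgeR adjusted p = 0.0354). The adjusted p of CLU was 0.111 and 0.118 without siControl replicate 1 or 2 and 0.0736 without siDAB2IP replicate 2. C5AR2, a receptor for C5a, stood at 12.3, 7.38 and 15.7 CPM in siControl and at 33.4, 20.4 and 22.1 CPM in siDAB2IP libraries. The groups did not overlap, and the log2 fold change was 1.11 (SE 0.27, edgeR adjusted p = 0.0241). The adjusted p of C5AR2 was 0.0768 and 0.0801 without siControl replicate 1 or 2 and 0.0714 without siDAB2IP replicate 1. C5AR1, the other C5a receptor, stood at 4.49, 4.18 and 3.46 CPM in siControl and at 2.88, 0.886 and 2.20 CPM in siDAB2IP libraries. Its log2 fold change of −1.02 (SE 0.36) missed the threshold in edgeR (adjusted p = 0.0854). DESeq2 gave an adjusted p of 0.0495, and edgeR gave 0.0422 when blocked by replicate number, 0.00441 without a filter on low counts and 0.0480 without siDAB2IP replicate 1. Without siDAB2IP replicate 2, the lowest library, the log2 fold change of C5AR1 was −0.67 (edgeR adjusted p = 0.141), and limma on log2(FPKM + 1), a scale that understates changes of low genes, gave −0.52 (adjusted p = 0.0982).

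Of other genes of the list with a mean of at least 1 FPKM, ITGB2, the beta chain of the complement receptors CR3 and CR4, had a log2 fold change of 0.34 (SE 0.13, edgeR adjusted p = 0.106). C1QBP, a mitochondrial protein that binds C1q, had a log2 fold change of −0.06 (SE 0.14, 95% interval −0.37 to 0.25, edgeR adjusted p = 0.813), and a value of 0.086 without siDAB2IP replicate 3.

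The genes whose pattern over the 6 libraries was most like that of C3 and CFB were found by the mean absolute difference in log2 CPM, each gene centered on its siControl mean. For C3 these were SMAD9 (0.03), SF3A3 (0.04) and MPI (0.04). SF3A3, the closest of them with a high level, stood at 74.8, 76.6 and 73.8 CPM in siControl and at 51.6, 49.5 and 46.2 CPM in siDAB2IP libraries. For CFB these were PDZK1IP1 (0.12), DAPK2 (0.13) and PLCL1 (0.15). PDZK1IP1 stood at 136, 119 and 87.2 CPM in siControl and at 35.0, 29.4 and 22.3 CPM in siDAB2IP libraries, and like CFB it had its lowest level in replicate 3 of each group.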

How the data were processed

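The authors deposited counts of reads on each gene for 6 MCF10A libraries, as whole numbers without normalization, and a table of FPKM values, in which they divided each count by gene length and a scaled library total. Libraries were sequenced by Novogene. The submitters' processing notes name STAR 2.6.1d, featureCounts 1.5.0-p3, DESeq2 1.20.0, edgeR 3.24.3 and hg38, without their roles. Gene coordinates are those of the deposited tables and match GENCODE for all 58735 genes.

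Differences between siDAB2IP and siControl were tested with glmQLFTest of edgeR 4.0.16 (R 4.3.3), after filterByExpr and TMM. Standard errors were derived from the F statistic. Log2 CPM used a prior count of 2. Alternatives were DESeq2 1.42.0, limma 3.58.1 on log2(FPKM + 1) and log2(FPKM + 0.1) for genes of at least 1 FPKM, other scalings and filters, stricter thresholds, the replicate block, and leaving out each library. The scripts were tested on simulated counts.

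Replicate numbers are the same in both groups. Deviations of log2 CPM from the group means had correlations over genes of 0.26, 0.15 and 0.25 between libraries that share a number, and of −0.28 to 0.02 between the others. Part of this contrast is forced, since deviations from a group mean cancel within the group. The numbers were treated as pairs, an inference from the data, only for the differences within each number and for the replicate block. The reported fit and its p-values did not use them. Genes named were DAB2IP, the 9 genes, genes that overlap them, genes of the wider list that passed the threshold or had a mean of at least 1 FPKM, the 3 genes most like C3 and CFB, and cell type markers, of which some are not reported here. The 9 genes and the lists were chosen with earlier results of these data known.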

Additional observations from a re-analysis of the deposited data

How the results depend on the processing

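None of the 9 genes changed direction under any alternative in which it was tested. The markers EPCAM, CDH1, KRT18, TP63, CD14 and DCN were not followed through the alternatives. Of the other named genes that were followed, only C1QBP changed direction. Its log2 fold changes were −0.15 to 0.086 when a library was left out (0.086 without siDAB2IP replicate 3). C1R passed in every alternative fit, and so did DAB2IP, with log2 fold changes of −1.99 to −1.79 when a library was left out. The count of the 9 genes that fell, 5 in the reported fit, was 1 (C1R) with limma on log2(FPKM + 1) without a filter, 2 (CFB and C1R) at an adjusted p under 0.01 and 2 where the log2 fold change also had to reach 1 in either direction. The count that rose, 0, was 1 with DESeq2 (CD46), 2 without a filter on low counts (CD46 and CD55) and 1 with the replicate block (CD46). Of all genes, 1098, 1245 and 1479 rose in these 3 fits, beside 1011 in the reported fit. For the wider list, 1 gene rose in the reported fit, 2 with DESeq2, 3 without a filter, 2 with the replicate block, and 0 with limma on log2(FPKM + 1), with or without a filter, on log2(FPKM + 0.1) and at an adjusted p under 0.01. 6 genes of this list fell in the reported fit, 1 with limma without a filter and 2 at either stricter threshold. Over all genes, 2192 were called, 1417 with limma on log2(FPKM + 0.1), 378 with limma on log2(FPKM + 1) without a filter, 622 at an adjusted p under 0.01 and 610 under the minimum fold change. The cause of these differences was not tested. When a library was left out, 3 to 5 of the 9 genes fell and 0 to 1 rose, 3 to 6 genes of the wider list fell and 0 to 3 rose, and 723 to 2524 of all genes were called. The lowest counts were without siControl replicate 2, where C3 (adjusted p = 0.0607) and CD59 (adjusted p = 0.128) were not called, and the highest were without siDAB2IP replicate 3. CLU and C5AR2 each kept their call in 9 of 15 alternatives. Apart from CD46, C1RL and C5AR1, which it added, the replicate block changed no call among the complement genes. CFD and CFI rest on 33 to 149 counts per library, and the genes not tested had too few counts for the filter.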
